A study of Mus musculus with 24 samples.

Results

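Half-methylated tiles are stretches of 100 bp whose CpGs were methylated in about 0.5 of the reads in liver, brain and heart alike. They were chosen by their measured levels: of 229172 tiles with 4 or more CpGs that were present in the tables of all 3 tissues, 2163 (0.944%) had a level between 0.25 and 0.75 in every one of 24 libraries and a mean between 0.35 and 0.65 in each tissue. The levels of the members are therefore given as a description, without a test. The libraries were made by enhanced reduced representation bisulphite sequencing (RRBS), in which restriction enzymes enrich CpG-rich fragments and bisulphite turns unmethylated cytosines, but not methylated ones, to uracil before sequencing. They came from liver (12 libraries), brain (6) and heart (6) of C57Bl/6J mice of 24 weeks, with male and female mice in equal numbers per tissue. The columns of the tables carry running numbers, so that each level was tied to a tissue but not to a mouse or a gender, and all 3 groups mix both genders. C57Bl/6J is an inbred strain, so no read could be given to the maternal or the paternal allele, and in bulk tissue a methylated copy beside an unmethylated copy in each cell cannot be told apart from methylated cells beside unmethylated cells.

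Most CpGs in a mammalian genome are either nearly fully methylated or, in CpG-rich promoters, nearly unmethylated. Imprinted genes are the textbook exception. At their control regions the copy from the mother or the copy from the father was methylated in the germ cells, and this mark is kept through the wave of demethylation in the early embryo, so that a somatic cell of any tissue carries a methylated and an unmethylated copy. Most such germline marks are maternal and lie at promoters, and only a few are paternal and lie between genes. The zinc finger protein ZFP57 binds the methylated hexamer TGCCGC and protects these marks in the embryo.

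Before the levels, the sequences of 10 members at imprinted genes show what such tiles look like. They were read from the mm10 assembly on its plus strand, 5′ to 3′, and the capitals mark the hexamer TGCCGC on the plus strand or its complement GCGGCA. For each imprinted region that holds the hexamer, the tile with most copies was taken, and 10 of them are shown.
Mcts2 promoter, chr2:152686801-152686900: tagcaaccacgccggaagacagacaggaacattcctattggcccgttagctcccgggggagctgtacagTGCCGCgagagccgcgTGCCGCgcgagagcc
Nnat in a Blcap intron, chr2:157560301-157560400: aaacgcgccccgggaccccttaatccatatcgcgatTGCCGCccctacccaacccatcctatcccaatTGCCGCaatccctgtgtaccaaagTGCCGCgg
Gnas promoter, chr2:174327801-174327900: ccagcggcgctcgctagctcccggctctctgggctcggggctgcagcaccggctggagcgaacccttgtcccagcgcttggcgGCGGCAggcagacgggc
Mest coding sequence, chr6:30738301-30738400: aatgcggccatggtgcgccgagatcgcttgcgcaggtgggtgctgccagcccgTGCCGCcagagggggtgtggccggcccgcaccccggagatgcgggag
Nap1l5 coding sequence, chr6:58906801-58906900: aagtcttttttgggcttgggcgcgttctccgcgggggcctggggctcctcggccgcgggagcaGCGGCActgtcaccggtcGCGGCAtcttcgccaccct
Snrpn promoter, chr7:60005101-60005200: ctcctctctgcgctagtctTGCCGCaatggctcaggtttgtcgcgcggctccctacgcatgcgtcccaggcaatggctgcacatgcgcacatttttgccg
upstream of H19, chr7:142582001-142582100: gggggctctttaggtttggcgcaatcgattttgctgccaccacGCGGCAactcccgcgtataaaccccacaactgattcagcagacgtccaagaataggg
Plagl1 exon, chr10:13091001-13091100: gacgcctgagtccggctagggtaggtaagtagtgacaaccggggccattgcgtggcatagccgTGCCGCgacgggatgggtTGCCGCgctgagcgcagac
Peg13 exon, chr15:72809701-72809800: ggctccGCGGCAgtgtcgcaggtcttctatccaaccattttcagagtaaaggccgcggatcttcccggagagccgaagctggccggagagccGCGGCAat
Airn in an Igf2r intron, chr17:12742301-12742400: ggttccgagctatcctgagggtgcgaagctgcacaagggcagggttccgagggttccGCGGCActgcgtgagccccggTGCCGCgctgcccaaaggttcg

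The hexamer stood on either strand in 20 of the 87 members at listed imprinted genes (23.0%), in 10.1% of all 978 tiles with 4 or more CpGs at these genes, and in 6.69% of all 229172 tiles with 4 or more CpGs. Among the 2076 members elsewhere it stood in 93 (4.48%). The tile in the Blcap intron next to the start of Nnat held 3 copies and the tiles of Mcts2, Nap1l5, Plagl1, Peg13 and Airn held 2 each. In the Peg13 tile the level was 0.458 ± 0.0492 (SD, n = 12) in liver, 0.372 ± 0.0218 (SD, n = 6) in brain and 0.432 ± 0.0917 (SD, n = 6) in heart. A match is a description of the letters in the tile, and binding of ZFP57 was not measured.

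The next sequences are members away from the listed imprinted genes, with every CpG in capitals. The 4 in genes are those with most CpGs in their regions, and the last is a tile whose every 31-mer occurs more than once in the genome.
Meioc exon, chr11:102665601-102665700: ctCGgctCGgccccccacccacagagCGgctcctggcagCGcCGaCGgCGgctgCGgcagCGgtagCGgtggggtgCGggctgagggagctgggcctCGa
Dact3 coding sequence, chr7:16885601-16885700: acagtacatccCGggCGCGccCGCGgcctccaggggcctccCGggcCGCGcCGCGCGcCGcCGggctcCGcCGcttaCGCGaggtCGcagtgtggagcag
Lingo3 coding sequence, chr10:80835001-80835100: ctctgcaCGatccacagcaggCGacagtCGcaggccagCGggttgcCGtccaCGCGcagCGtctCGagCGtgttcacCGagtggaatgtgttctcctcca
Apc2 coding sequence, chr10:80313701-80313800: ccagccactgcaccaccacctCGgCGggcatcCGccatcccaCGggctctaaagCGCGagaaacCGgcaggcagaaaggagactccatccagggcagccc
repeated tile on chromosome 8, chr8:19680601-19680700: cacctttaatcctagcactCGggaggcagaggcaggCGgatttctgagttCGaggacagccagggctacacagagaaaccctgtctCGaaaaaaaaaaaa

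The Dact3 tile held 18 CpGs, the Meioc tile 12, the Lingo3 tile 11, the Apc2 tile 7 and the repeated tile 4. Members were poorer in CpGs than the tiles they were drawn from: 15.4% held 7 or more CpGs, against 35.3% of all tiles with 4 or more, and 47.4% held exactly 4, against 33.8%. At the listed imprinted genes 7 or more CpGs stood in 43.7% of members and 43.7% of all tiles there, with a mean of 6.64 CpGs in members and 7.31 in all. The mean GC content was 56.9% in members and 60.1% in all tiles with 4 or more CpGs.

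Within their limits the members were not constant. Over the 24 libraries a member's lowest and highest levels lay a median of 0.315 apart (from 0.075 to 0.5), and its 3 tissue means a median of 0.116 apart. The tissue means of 279 members (12.9%) lay within 0.05 of each other. The SD between libraries had a median over members of 0.0613 (liver), 0.0631 (brain) and 0.0522 (heart). For all tiles with 4 or more CpGs, most of which lie near 0 or 1 and have little room to vary, these medians were 0.0231, 0.0215 and 0.0216. Averaged over all members, the 12 liver libraries ran from 0.508 to 0.533 with a median of 0.518, the 6 brain libraries from 0.505 to 0.538 with a median of 0.524, and the 6 heart libraries from 0.465 to 0.485 with a median of 0.474. Heart was therefore lowest, with no heart library reaching the lowest library of liver or brain. The mean over all tiles with 4 or more CpGs was lowest in heart too, at 0.440 ± 0.00207 (SD, n = 6), against 0.472 ± 0.00309 (SD, n = 12) in liver and 0.462 ± 0.00577 (SD, n = 6) in brain.

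The limits of the choice decided many tiles. All 3 tissue means lay between 0.35 and 0.65 in 3101 tiles, and 938 of these had a library outside 0.25 to 0.75. In 612 of the 938 it was a single library, and in 127 it lay outside by no more than 0.01. Just inside, 229 members had a library at or beyond 0.26 or 0.74. A further 1074 tiles had all 24 libraries inside but a tissue mean outside.

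The members were spread over all 19 autosomes, from 0.666% of the tiles with 4 or more CpGs on chromosome 3 to 1.28% on chromosome 18. Members at most 1000 bp apart were joined to regions, which gave 1947 regions. A total of 1802 regions held a single tile, 109 held 2, 20 held 3, 6 held 4 and 10 held 5 or more, up to 9. Hence 361 members (16.7%) had another member within 1000 bp. Of the 1004 tiles with 4 or more CpGs that adjoined a member, 229 (22.8%) were members themselves, against 0.944% of all tiles with 4 or more CpGs. Adjoining tiles can share reads, and the part of shared reads in this share was not tested.

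The larger a region was, the more often it lay at an imprinted gene. A list of 81 imprinted genes was used, of which 79 had a curated RefSeq transcript, and a tile was placed at a gene when it lay within the gene or at most 5000 bp from it. Single-tile regions lay there in 16 of 1802 cases (0.888%, exact 95% interval 0.508% to 1.44%), regions of 2 tiles in 6 of 109 (5.50%), regions of 3 in 3 of 20 (15%), regions of 4 in 2 of 6 (33.3%) and regions of 5 or more in 7 of 10 (70.0%, interval 34.8% to 93.3%). By tile, 87 of the 2163 members (4.02%) lay at these genes, against 0.427% of the tiles with 4 or more CpGs. Of the 87, 81.6% belonged to regions of 2 or more tiles, against 14.0% of the members elsewhere. An eligible tile that adjoined a member at an imprinted gene was a member in 42 of 75 cases (56.0%, interval 44.1% to 67.5%), and one that adjoined another member in 187 of 929 (20.1%, interval 17.6% to 22.9%).

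**Figure D1:**
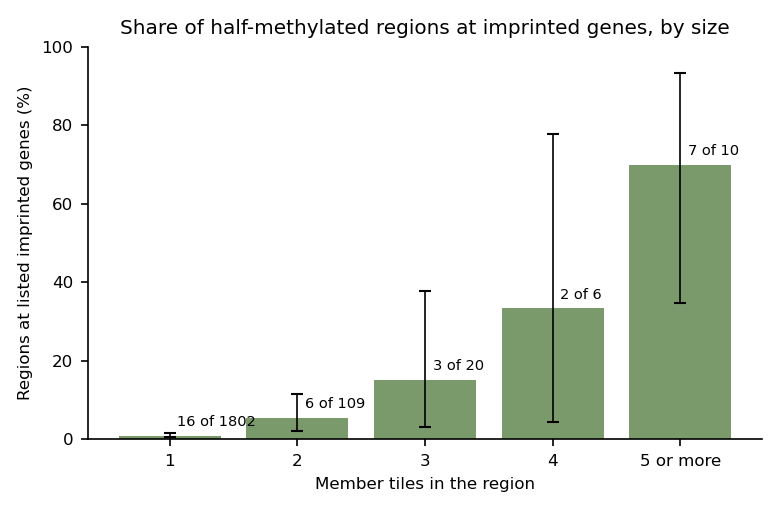
Share of half-methylated regions that lie at a listed imprinted gene (percent, y axis) by the number of member tiles in the region (x axis). Bars are shares with exact 95% binomial intervals, which cover counting error only. The share runs from 0.888% of single-tile regions to 70.0% of regions with 5 or more tiles.

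The list held 29 genes at maternal germline marks, 5 at paternal germline marks and 47 other imprinted genes. Tiles were placed by the gene and 5000 bp on either side, and whether they lie in the mark itself was not examined. At the genes of maternal marks 74 of 376 tiles with 4 or more CpGs (19.7%) were members. Of the 28 genes with such a tile, 24 had a member. The 4 without were Inpp5f, Cdh15, Fkbp6 and Zfp777. Their 14, 8, 8 and 21 tiles had 8, 2, 1 and 16 with a mean over the tissues below 0.35 and 2, 2, 6 and 5 above 0.65. At the genes of paternal marks 10 of 82 tiles (12.2%) were members, at H19, Rasgrf1, Meg3 and Zdbf2 but not at Dlk1. The Rasgrf1 member lay in an intron, 13526 bp from the start of the gene. Of the 47 other imprinted genes, whose own promoters mostly carry no germline mark, Igf2r, Kcnq1 and Ppp1r9a alone had members, 7 of 544 tiles (1.29%). The 3 at Igf2r are those of Airn, the noncoding RNA that starts inside it. Likewise 1 of the 2 at Kcnq1 is that of Kcnq1ot1, and such tiles are counted in both groups. Among these other genes 315 of the 544 tiles lay below 0.35 and 187 above 0.65. Every one of the 12 tiles of Phlda2, the 13 of Klf14 and the 10 of Ascl2 lay below 0.35, and every one of the 12 of Rtl1 above 0.65. So the listed genes as a whole were not half-methylated. The members marked short stretches of them.

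The largest region lay at Gnas, which encodes the stimulatory G protein alpha subunit and has several imprinted promoters. It covered chr2:174298101-174300500, with 9 members and 61 CpGs, all in coding sequence of a Gnas transcript. In liver its libraries had a lowest level of 0.405, a median of 0.441 and a highest of 0.475. In brain they ran from 0.358 over 0.380 to 0.406, and in heart from 0.362 over 0.374 to 0.413. The highest brain library thus just reached the lowest liver library, and brain and heart lay together. Over the 21 tiles present inside its borders, whatever their number of CpGs, liver had a mean of 0.434 and brain and heart had 0.367 each.

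Gnas held 3 more regions. That of 5 members at chr2:174284601-174286100, where Gnas overlaps the antisense transcript Gnasas1, had means of 0.430 ± 0.0346 (SD, n = 12) in liver, 0.406 ± 0.0216 (SD, n = 6) in brain and 0.384 ± 0.0195 (SD, n = 6) in heart. A single member followed at chr2:174287701-174287800, and 2 members stood at chr2:174327801-174328500, in a promoter and the exon beside it. At these 2 the means were 0.429 ± 0.0584 (SD, n = 12), 0.378 ± 0.0342 (SD, n = 6) and 0.380 ± 0.0470 (SD, n = 6). Of 17 tiles from 1000 to 5000 bp away from the last region, 13 lay below 0.35. The Gnas locus gave 17 of the 87 members at imprinted genes.

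Retrogenes in introns of other genes made up a further group. Zrsr1 lies in an intron of Commd1, a gene of copper metabolism, and its region at chr11:22971901-22974000 held 7 members with 44 CpGs. Its libraries ran from 0.386 over 0.453 to 0.486 in liver, from 0.373 over 0.397 to 0.444 in brain and from 0.411 over 0.452 to 0.461 in heart. All 3 tissues overlapped. Nap1l5 in Herc3 had 2 members at chr6:58906601-58906900, in the coding sequence of Nap1l5, and here the tissues parted. The liver libraries ran from 0.490 over 0.562 to 0.666, the brain libraries from 0.323 over 0.360 to 0.397 and the heart libraries from 0.372 over 0.423 to 0.450. Every liver library lay above every brain and heart library. Mcts2, inside H13, had 2 members in its promoter at chr2:152686801-152687200, with means of 0.494 ± 0.0537 (SD, n = 12), 0.398 ± 0.0525 (SD, n = 6) and 0.516 ± 0.0837 (SD, n = 6).

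Peg13 is a noncoding RNA gene inside Trappc9. Its region at chr15:72809601-72810700 held 6 members, and its libraries ran from 0.389 over 0.445 to 0.533 in liver, from 0.379 over 0.393 to 0.423 in brain and from 0.423 over 0.438 to 0.548 in heart. Nnat, a small membrane protein gene of the developing brain, lies in Blcap. It had a region of 5 members at chr2:157561401-157561900 and a single member at chr2:157560301-157560400. The 6 brain libraries of the larger region lay between 0.382 and 0.406 with a median of 0.389, all below the lowest of the 12 liver libraries at 0.439. Heart spanned 0.390 to 0.531 and overlapped both.

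Grb10 encodes an adaptor that restrains insulin and growth factor receptors. Its 5 members at chr11:12025501-12026900 lay in an intron, with 47 CpGs and means of 0.472 ± 0.0316 (SD, n = 12) in liver, 0.396 ± 0.0513 (SD, n = 6) in brain and 0.449 ± 0.0531 (SD, n = 6) in heart. A brain library at 0.494 stood above the other 5, whose highest was 0.399. Over the 10 tiles present inside the borders of the Grb10 region, members or not, the means were 0.421, 0.343 and 0.387. Plagl1, a zinc finger transcription factor gene, had 4 members at chr10:13090601-13091100 with means of 0.398 ± 0.0499 (SD, n = 12), 0.384 ± 0.0301 (SD, n = 6) and 0.406 ± 0.0399 (SD, n = 6). Slc38a4, which encodes an amino acid transporter, had 4 members at chr15:97054201-97056000 with means from 0.424 in heart to 0.457 in liver. The 3 members of Airn at chr17:12742201-12742500 lay in an intron of Igf2r, the receptor that clears Igf2, with means from 0.389 in heart to 0.441 in liver. Peg10, derived from a retrotransposon, and the neighbouring Sgce shared a promoter region of 3 members at chr6:4746901-4747500, with means from 0.396 in brain to 0.433 in liver.

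Mest had 5 members in 3 regions. The region of 3 members at chr6:30738301-30739400 had means of 0.443 ± 0.0356 (SD, n = 12) in liver, 0.405 ± 0.0363 (SD, n = 6) in brain and 0.431 ± 0.0451 (SD, n = 6) in heart. The single member at chr6:30735401-30735500 was the other way round, with brain at 0.565 ± 0.0744 (SD, n = 6) and liver at 0.456 ± 0.0767 (SD, n = 12). Snrpn, a gene of the Prader-Willi region, had 2 members at its start with means of 0.459, 0.434 and 0.414 in liver, brain and heart. Impact, a regulator of translation, had 5 members at its start on chromosome 18, with means of 0.477 ± 0.0337 (SD, n = 12), 0.410 ± 0.0379 (SD, n = 6) and 0.518 ± 0.0356 (SD, n = 6), and there every heart library lay above every brain library. Kcnq1ot1, the noncoding RNA of the Kcnq1 cluster, and Peg3 had 1 member each, and further single members lay in Kcnq1 and Usp29. The member of Ppp1r9a at chr6:5008801-5008900, far inside the gene, ran from 0.355 over 0.454 to 0.515 in liver, from 0.574 over 0.634 to 0.75 in brain and from 0.35 over 0.413 to 0.492 in heart. Every brain library lay above every other library there.

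At the genes of paternal marks the members stood singly or in pairs. H19, a noncoding RNA gene, had 6 tiles with 4 or more CpGs, none with a mean over the tissues below 0.35 or above 0.65. Of these, 3 were single members. The member 246 bp from the outer start of H19 lay inside the gene, and those at 2755 and 3855 bp lay upstream. The outermost ran from 0.359 over 0.462 to 0.566 in liver, from 0.337 over 0.401 to 0.537 in brain and from 0.416 over 0.495 to 0.584 in heart. Meg3, the noncoding RNA gene of the Dlk1 cluster, had 2 members at its start with means of 0.458, 0.428 and 0.414, and 1 inside it with 0.515, 0.546 and 0.645. Zdbf2 had 3 members and Rasgrf1, a Ras exchange factor gene, 1. At the Rasgrf1 member the liver mean of 0.604 ± 0.0818 (SD, n = 12) stood above the heart mean of 0.410 ± 0.0354 (SD, n = 6), and no liver library overlapped a heart library.

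Averaged over the members at imprinted genes, all 3 tissues lay below 0.5. The mean was 0.457 ± 0.0211 (SD, n = 12) in liver, 0.411 ± 0.0134 (SD, n = 6) in brain and 0.432 ± 0.0130 (SD, n = 6) in heart. The members elsewhere had 0.522 ± 0.00743, 0.528 ± 0.0145 and 0.477 ± 0.00729 in the same libraries. Liver lay above brain in 79 of the 87 (90.8%), in 947 of the 2076 elsewhere (45.6%) and in 62.1% of all tiles with 4 or more CpGs. Of the 12 imprinted regions of 3 or more tiles, brain lay below liver in 12 and all 3 means lay below 0.5 in 11. Impact, with heart at 0.518, was the exception. Over all 34 imprinted regions, brain lay below liver in 28, heart below liver in 24 and brain below heart in 21, and all 3 means lay below 0.5 in 20. Single members and pairs of Nap1l5, Usp29, Rasgrf1, Ppp1r9a, Meg3 and Mest were among those with a mean above 0.5. Of the 24 regions of 3 or more tiles elsewhere, brain lay below liver in 7 and all 3 means below 0.5 in none. The brain and liver libraries did not overlap in 1 of the 12 imprinted and 2 of the 24 other regions. By tile they did not overlap in 160 of the 2163 members (7.40%), whose levels were held within limits, and in 13.3% of all tiles with 4 or more CpGs. These levels chose the members, and no test was made on them.

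**Figure D2:**
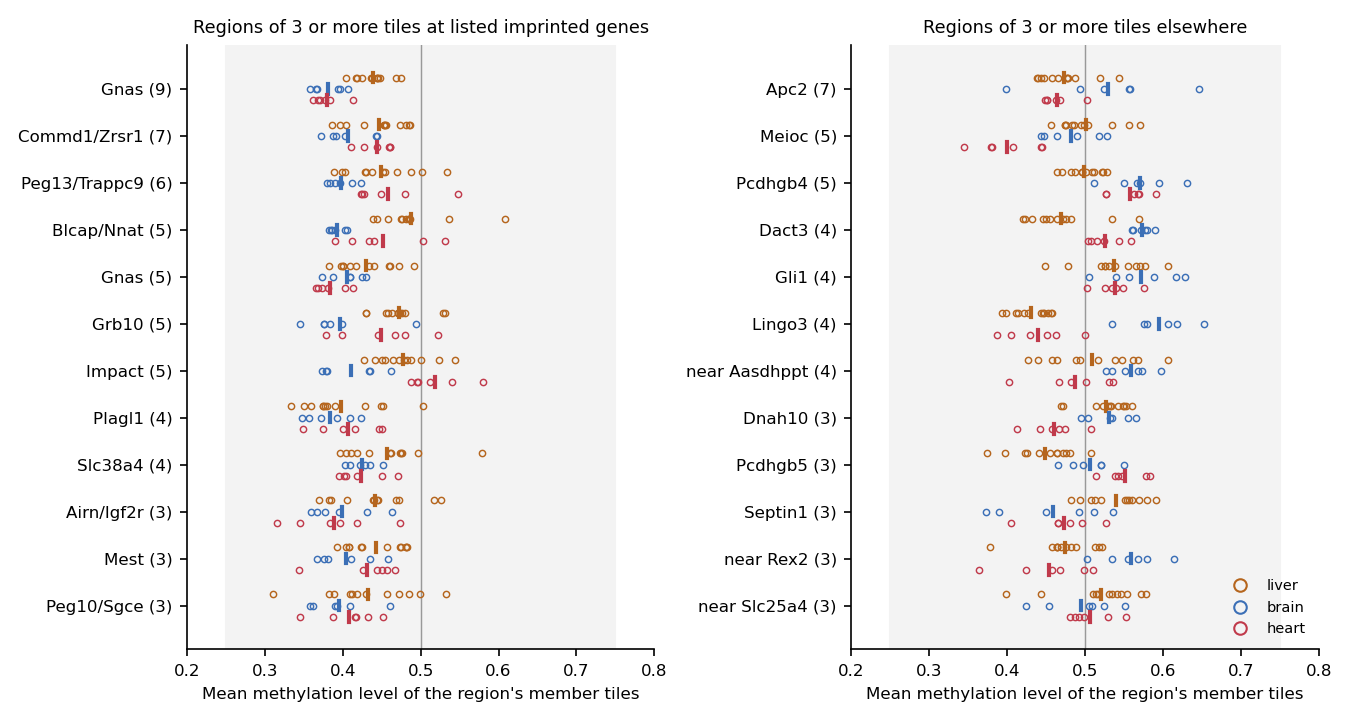
Mean level of the member tiles (x axis, fraction methylated) in each library for regions of 3 or more tiles, with the number of tiles in parentheses. Circles are libraries (12 liver, 6 brain, 6 heart), short bars are tissue means and the grey band is the range each tile had to lie in. All 12 imprinted regions on the left have brain below liver, and those on the right, the 12 named regions elsewhere, hold both orders.

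The largest region away from the listed genes lay in coding sequence of Apc2, a relative of the Wnt pathway gene Apc, at chr10:80312501-80314700. It held 7 members with 41 CpGs. Its libraries ran from 0.439 over 0.471 to 0.544 in liver, from 0.398 over 0.540 to 0.646 in brain and from 0.449 over 0.457 to 0.502 in heart, and brain spanned the whole range of the others. Of 16 tiles from 1000 to 5000 bp away, 14 lay above 0.65. Lingo3, a leucine-rich repeat protein gene, had 4 members in coding sequence at chr10:80834701-80835400. Here the brain libraries ran from 0.535 over 0.594 to 0.653, above every liver library (0.394 to 0.458) and every heart library (0.387 to 0.5).

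Meioc, which keeps germ cells in meiosis, had 5 members at chr11:102665601-102666300, just inside the gene. The nearest lay 16 bp from the start, and no member covered the start itself. Its libraries ran from 0.456 over 0.490 to 0.570 in liver, from 0.444 over 0.477 to 0.528 in brain and from 0.344 over 0.394 to 0.444 in heart. No heart library reached the lowest liver library. Promoters of some germline genes are methylated in somatic tissue. Of 207 tiles nearest to a list of other germline genes, 4 were members (1.93%), against 0.944% of all tiles with 4 or more CpGs. Such tiles made up 0.185% of members (exact 95% interval 0.0504% to 0.473%) and 0.0903% of all, and the difference was not tested. The 4 lay at Smc1b (2), a cohesin subunit gene of meiosis, at Tex101 and at Tex14. Those at Tex101 and Tex14 were in introns, 1750 and 1591 bp from a start. Smc1b held both at its promoter, with tissue means from 0.380 to 0.443 in the tile at chr15:85131701-85131800, and from 0.560 to 0.609 in the tile next to it.

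Dact3, which encodes a binding partner of Dishevelled, was the densest in CpGs, with 65 in 4 members of coding sequence at chr7:16885601-16886100. Its libraries ran from 0.420 over 0.459 to 0.569 in liver, from 0.560 over 0.574 to 0.590 in brain and from 0.503 over 0.520 to 0.559 in heart. The lowest brain library lay just above the highest heart library. Over the 5 tiles present inside its borders, liver had a mean of 0.416, brain 0.598 and heart 0.506. The tile of 20 CpGs among them was not a member, with 0.2055 in liver, 0.699 in brain and 0.428 in heart. Gli1, the transcription factor gene of the Hedgehog pathway, had 4 members in coding sequence at chr10:127331301-127332500 with means from 0.537 to 0.572. Dnah10, an axonemal dynein gene, had 3 at chr5:124761101-124761400 with means from 0.460 to 0.531, and 9 of 9 tiles from 1000 to 5000 bp away lay above 0.65. Septin1 had 3 members with means from 0.458 to 0.540. A further 3 named regions of 3 or 4 tiles lay between genes, 48594 bp from Aasdhppt, 41239 bp from Slc25a4 and 79250 bp from Rex2, and their tissue means lay between 0.454 and 0.559. The region near Rex2 had 68.1% of its 31-mers elsewhere in the genome.

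**Figure D3:**
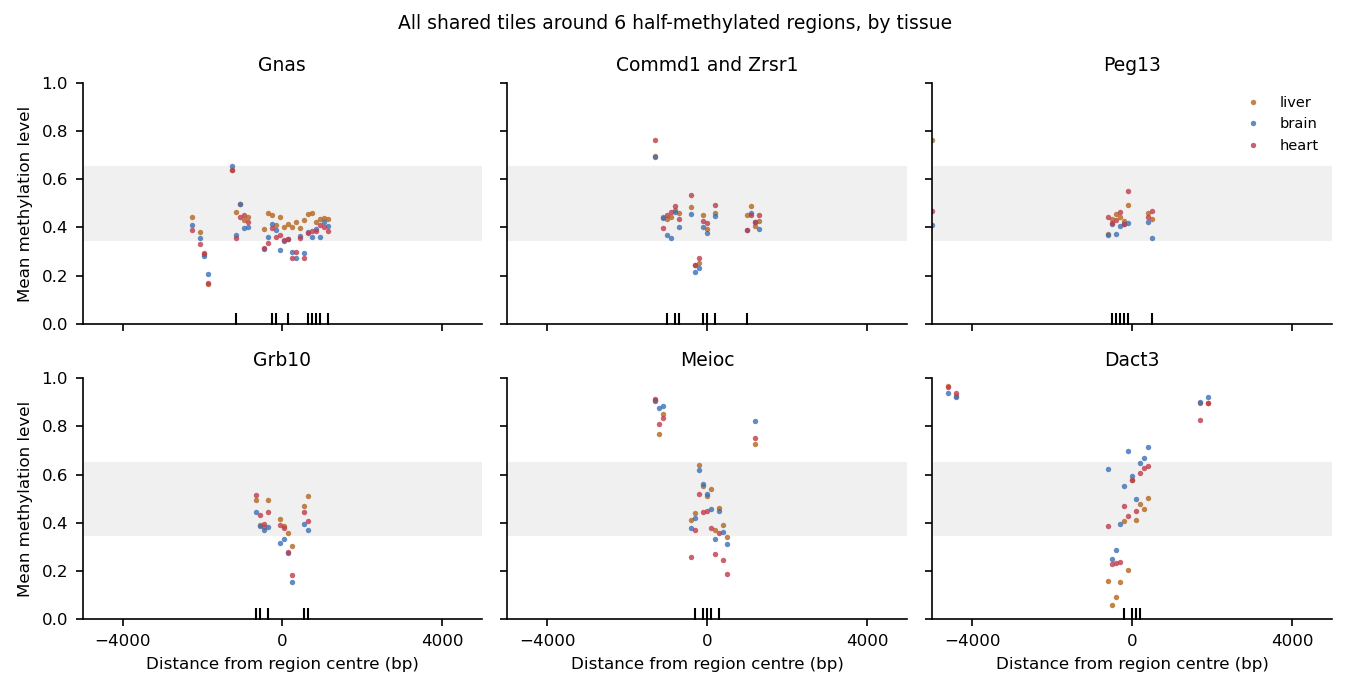
Mean level of every tile present in all 3 tables (y axis, fraction methylated) against its distance from the centre of 6 regions (x axis, bp), by tissue. Ticks at the bottom mark members and the grey band is 0.35 to 0.65. Gnas, Commd1 and Zrsr1, Peg13 and Grb10 are imprinted, and Meioc and Dact3 are not on the list. At Dact3 the 4 tiles before the first member lie below 0.35 in liver, with higher levels in brain, and tiles above 0.8 lie further out on both sides.

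The clustered protocadherin genes encode neuronal surface proteins, of which a cell uses a few. Of the 286 tiles nearest to them 39 (13.6%) were members, against 0.944% of all. The listed imprinted genes had 8.90% as a whole and the genes of maternal marks 19.7%, counted over each gene and 5000 bp around it. In the Pcdhb genes 16 of 76 tiles were members (21.1%), in the Pcdha genes 8 of 70 (11.4%) and in the Pcdhg genes 15 of 140 (10.7%). A total of 36 of the 39 lay in coding sequence, and 10 had more than 50% of their 31-mers elsewhere in the genome, as near-identical copies would have. Brain lay above liver in 34 of the 39. Liver lay above brain in 47.4% of all members, in 33.1% of mostly repeated members and in 62.1% of all tiles with 4 or more CpGs. In the region of 5 members at Pcdhgb4 the liver libraries ran from 0.464 over 0.499 to 0.528, the brain libraries from 0.511 over 0.568 to 0.631 and the heart libraries from 0.526 over 0.565 to 0.591. The liver and heart libraries barely overlapped. At Pcdhgb5, with 3 members, liver had a mean of 0.448 ± 0.0378 (SD, n = 12), brain 0.506 ± 0.0299 (SD, n = 6) and heart 0.551 ± 0.0260 (SD, n = 6).

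The other lists had lower shares. Olfactory and vomeronasal receptor genes, which are used in sensory neurons of the nose, were nearest to 46 of 1740 tiles (2.64%), 44 of them intergenic and 17 mostly repeated. Zinc finger genes were nearest to 35 of 4471 (0.783%), close to the 0.944% of all tiles. Hox genes, the position genes of the body axis, were nearest to 1 of 510, at Hoxa7. A list of histone genes met no symbol of the annotation. The 2163 members were nearest to 1733 genes, and 1444 of these genes were nearest to a single member.

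By annotation the members moved away from gene starts. Promoters, the 1000 bp before a start, held 7.03% of members and 17.6% of the tiles with 4 or more CpGs, and 14.8% of members lay within 1000 bp of a start, against 36.9%. Intergenic sequence held 42.4% of members and 28.2% of all, introns 25.6% and 27.3%, and coding sequence 21.6% and 20.3%. The median distance to a start was 12570 bp for members and 5958.5 bp for all. The members at imprinted genes were different, with 50.6% within 1000 bp of a start and 23.0% in promoters.

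Soft-masked repeats were hardly more common than in the tiles at large, and repeated 31-mers were more common. At least 50 of the 100 bases were soft-masked as repeats in 15.7% of members and 15.3% of all tiles with 4 or more CpGs. More than 50% of the 31-mers occurred elsewhere in the genome in 14.5% (exact 95% interval 13.1% to 16.1%) and 11.6%. The 31-mers had a median of exactly 2 copies in 2.82% (interval 2.16% to 3.61%) and 1.56%. For a tile with repeated 31-mers, reads from several copies may be counted at a single place. The handling of reads that fit more than a single place is not given in the sources used here. Of the tiles with mostly repeated 31-mers, those of under 10 copies were members in 1.56% of cases, those of 10 to 99 copies in 1.13% and those of 100 or more in 0.894%. The share for tiles without a repeated 31-mer was 0.893%. Of the 87 members at imprinted genes, 1 was mostly repeated. The 5 single-tile regions with the smallest spread between libraries lay near Bmp7, in Med12l, and near Vmn2r69, 4930467E23Rik and Mir6411, and 4 of them were soft-masked for 80% of their bases or more. The tile near 4930467E23Rik, shown above, ran from 0.512 over 0.565 to 0.587 in liver, from 0.564 over 0.582 to 0.623 in brain and from 0.538 over 0.590 to 0.595 in heart, and its 31-mers had a median of 255 copies.

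A tissue that took no part in the choice gives values that the choice did not fix. Tiles were chosen by the same limits in a pair of tissues and their mean was read in the third. Of 3785 tiles chosen in liver and brain, 59.0% had a heart mean between 0.35 and 0.65, against 8.29% of all tiles with 4 or more CpGs. Of 4302 chosen in liver and heart, 56.3% had a brain mean in this range, against 7.38% of all. Of 6038 chosen in brain and heart, 43.2% had a liver mean in this range, against 5.55% of all. Where the left-out tissue was outside the range, liver was mostly above it (2690 tiles, against 739 below), brain too (1358 against 521), and heart was mostly below it (1331 against 220). At the listed imprinted genes the shares were 97 of 105 for heart (92.4%, interval 85.5% to 96.7%), 92 of 113 for brain (81.4%, interval 73.0% to 88.1%) and 93 of 113 for liver (82.3%, interval 74.0% to 88.8%). For mostly repeated tiles they were 84.6%, 63.5% and 68.0%. The same tissue entered as chooser and as left-out tissue in turn, so that the 3 shares are not independent.

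**Figure D4:**
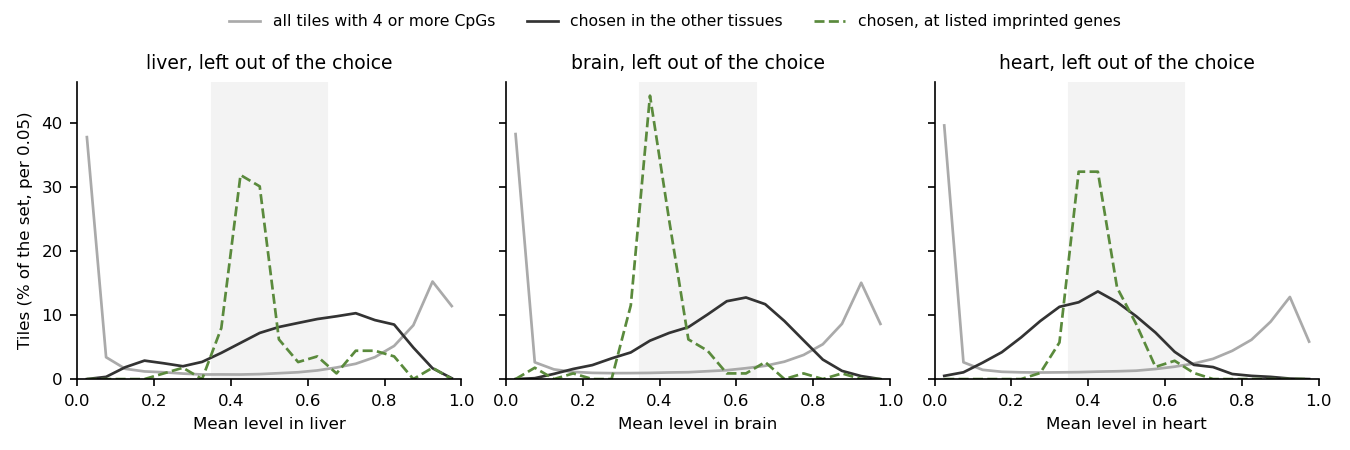
Mean level in a tissue (x axis, fraction methylated) for tiles chosen in the other tissues only, in percent of the set per bin of 0.05 (y axis). Grey lines are all tiles with 4 or more CpGs, black lines the chosen tiles and green dashed lines those at listed imprinted genes. The black lines fill the grey band of 0.35 to 0.65 with 43.2% (liver), 56.3% (brain) and 59.0% (heart) of the tiles, and the green lines with 82.3%, 81.4% and 92.4%.

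Tiles of 1 to 3 CpGs could not be members, and 2797 of them lay at most 500 bp from a member. All 3 tissue means lay between 0.35 and 0.65 in 420 of these neighbours (15%), against 3.64% of all tiles of 1 to 3 CpGs. Beside members at imprinted genes it was 29 of 52 (55.8%), and beside other members 391 of 2745 (14.2%). The 52 had median levels of 0.470 (liver), 0.420 (brain) and 0.428 (heart), and those of the 2745 were 0.606, 0.591 and 0.524. Neighbours that adjoin a member can share reads with it.

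The neighbours were compared between tissues by limma over all 758685 tiles, and a tile was called where the adjusted p was at most 0.05 and the means lay 0.1 or more apart. Between liver and brain 1053 of 2797 were called (37.6%, 528 higher in liver and 525 in brain), against 27.5% of all tiles and 31.9% of all tiles of 1 to 3 CpGs. Between liver and heart 1111 were called (39.7%, 860 higher in liver), against 31.8% and 38.0%. Between brain and heart 1053 were called (37.6%, 815 higher in brain), against 32.2% and 38.7%. The calls over all tiles of 1 to 3 CpGs leaned the same way. Liver was higher than heart in 165211 of 199991 of them, and brain was higher than heart in 168045 of 203898. Between liver and brain 85575 were higher in liver and 82485 in brain. The shares for liver against heart and for brain against heart were near those of other tiles of few CpGs, and the differences between shares were not tested. Of the 52 beside imprinted members, 17 were called between liver and brain, 13 of them higher in liver, 13 between liver and heart, all higher in liver, and 18 between brain and heart, 10 of them higher in brain. By the mouse numbers in the labels, brain, heart and some of the liver libraries share mice, which the tables do not pair, and limma took all libraries as independent.

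At the largest regions of Zrsr1, Peg13 and Gnas the neighbours stayed close to the members. The 4 beside the Commd1 and Zrsr1 region had tissue means from 0.392 to 0.491 and the 1 beside Peg13 from 0.422 to 0.459, and none of these 5 was called in any comparison. Of the 4 beside the largest Gnas region, 1 was called, at chr2:174299501-174299600, with 0.404 in liver, 0.299 in brain and 0.273 in heart. Other loci changed within 500 bp. Beside the single Meg3 member, the tile at chr12:109545901-109546000 had 0.927 in liver, 0.439 in brain and 0.710 in heart, a difference of 0.488 ± 0.0371 (SE) between liver and brain at an adjusted p of 2.58e-11 by limma. Beside Airn, the tile at chr17:12743001-12743100 had 0.966 in liver, 0.786 in brain and 0.546 in heart, and liver exceeded heart by 0.420 ± 0.0254 (SE) at an adjusted p of 3.69e-13 by limma. Upstream of H19 the tile at chr7:142581301-142581400 had 0.754 in liver, 0.332 in brain and 0.776 in heart, with liver above brain by 0.422 ± 0.0388 (SE) at an adjusted p of 9.79e-10 by limma. At Mest the order was turned: the tile at chr6:30735101-30735200 had 0.671 in liver and 0.878 in brain, and brain exceeded liver at an adjusted p of 5.29e-07 by limma.

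**Figure D5:**
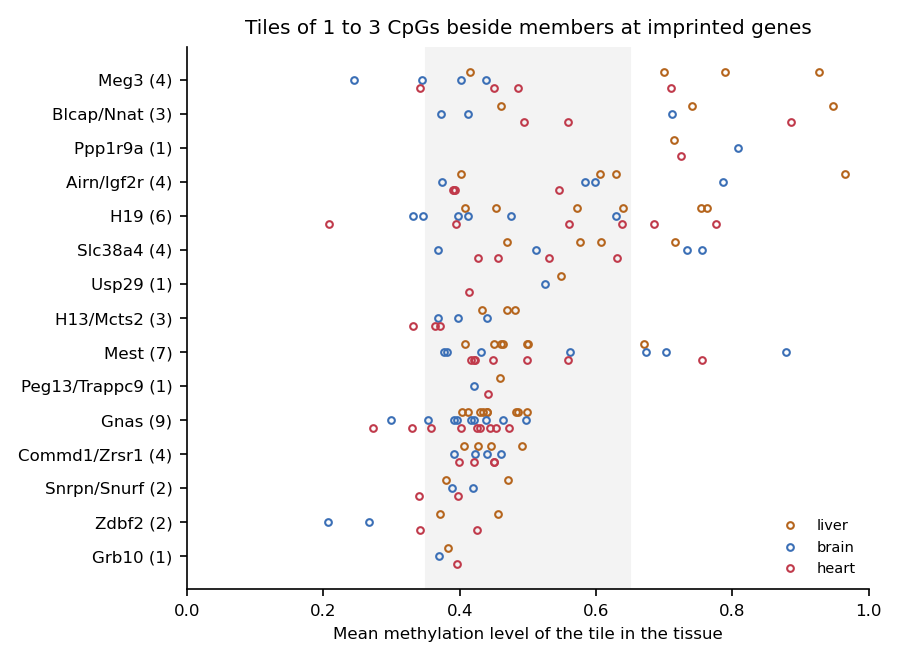
Mean level in each tissue (x axis, fraction methylated) of the 52 tiles of 1 to 3 CpGs at most 500 bp from a member at an imprinted gene, by gene, with their number in parentheses. Each circle is a tile in a tissue and the grey band is 0.35 to 0.65. Gnas and Zrsr1 neighbours lie in or near the band in all tissues, and those of Meg3 and Airn reach above 0.9 in liver.

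The libraries of a tissue correlated with Pearson's r between 0.942 and 0.977 over the shared tiles, and no pair held equal values in more than 3.30% of them. As a check of the tissue labels, tiles within 1000 bp of marker gene starts were compared: the own tissue had the lowest level at 3 of 3 liver genes, 4 of 5 brain genes (not Mbp) and 3 of 5 heart genes (not Nppa and Ryr2). Listed markers without a tile in all 3 tables were left out. Snap25 and Syt1, of the brain genes, were low in every tissue and say little about the label. Snap25 had 0.0399 in liver, 0.0145 in brain and 0.0206 in heart, and Syt1 had 0.0374, 0.0133 and 0.0203. The tables give no coverage, so that the depth behind each level is unknown and no interval can be put on it.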

How the data were processed

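A service made the enhanced RRBS libraries, sequenced them and mapped the reads by proprietary methods. The submitters' processing notes name Bismark, methylKit and mm10. The authors combined CpG calls with methylKit in tiles of 100 bp at over 10x coverage and deposited, per tissue, a table of methylation levels as fractions, without read counts. Depth per library is unknown, and intervals cover counting error only. Columns were grouped by tissue. They carry no mouse or gender, and gender was not analysed here.

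Tiles in all 3 tables (758685) were matched to mm10 sequence (GRCm38.p6): 99.6% held a CpG, against 55.2% when moved by 100000 bp. CpGs, soft masking, 31-mer copies and curated RefSeq transcripts were computed in Python 3.11.15. Members at most 1000 bp apart were joined. Intervals on shares are exact binomial (Clopper-Pearson, 95%). Tissues were compared with limma 3.58.1 on the fractions, with a trend and Benjamini-Hochberg adjustment over all tiles. The scripts were tested on simulated data. Whether replicates are separate mice rests on the labels.

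The members and the gene lists were chosen with earlier results of these data known. Named are all regions at listed imprinted genes, of the others the 12 of 3 or more tiles with most members (ties by the distance from 0.5), and the 5 single tiles with the smallest spread. Of the imprinted regions, some are given by counts. Smc1b, Tex101, Tex14, Hoxa7 and genes without members were named after their values were seen, as were the tiles of few CpGs. Sequences are from RefSeq's GRCm38.p6. None is printed for chromosome 18.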

Additional observations from a re-analysis of the deposited data

Results flagged for a closer look

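Of 106 groups of 6 libraries looked at (brain and heart, for the means over members and for the 51 named regions), 8 had a library far from the other 5 by Dixon's criterion, which chance passes in about 1 in 20 groups. Liver, with 12 libraries, was not looked at.

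Averaged over the members at imprinted genes, the highest brain library had 0.436 and the next 0.413, and the highest heart library had 0.457 and the next 0.434. In brain, a library stood apart upwards at Grb10 (chr11:12025501-12026900, 0.494 against 0.399 for the next) and at a single Mest member (chr6:30735401-30735500, 0.707 against 0.582). In heart, a library stood apart upwards at Apc2 (0.502 against 0.467) and at an H19 member (chr7:142580901-142581000, 0.510 against 0.429). Downwards, a heart library stood apart at the Mest region of 3 members (0.344 against 0.426) and at the Med12l tile (0.577 against 0.613). The tables do not name the mouse or gender of these libraries.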

How the results depend on the processing

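The number of half-methylated tiles and regions followed the limits. The count was 7995 tiles in 7318 regions with a minimum of 2 CpGs (1.68% of the tiles at imprinted genes) and 333 tiles in 270 regions with a minimum of 7 (11.4%). With every library between 0.30 and 0.70 it was 1020 tiles in 930 regions (4.61%), and with tissue means between 0.40 and 0.60 it was 873 in 817 (3.32%), both shares within the interval given below. With fewer tissues required it was 3785 tiles in 3353 regions for liver and brain (2.77%), 4302 in 3816 for liver and heart (2.63%) and 6038 in 5365 for brain and heart (1.87%). These follow from fewer or more limits. Limits of 0.20 and 0.80, leaving out repeated or soft-masked tiles, joining over 200 or 5000 bp, and gene windows of 0 or 20000 bp kept the counts within 1.5 times and the share within its exact interval of 3.23% to 4.94%. The calls on neighbouring tiles stayed within 1.5 times on a logit scale, without a trend, within 200 bp, at a difference of 0.05 and with the 2 tissues alone in the fit. Of 582 levels of named regions recomputed, 33 in 16 regions moved by 1 SD or more, as members fell out. Leaving out single libraries was not tried. No paired analysis was possible because the columns carry no mouse.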
